A study of Macaca mulatta with 5 samples.

Results

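Neuroepithelial stem cells (NESC) of the rhesus macaque were sequenced early in culture, at passage 5 (P5), and again at passage 24 (P24) and passage 36 (P36), and the early passage was compared with both later ones. The comparison used 3 of the 5 RNA-seq libraries of the study. Genes were kept where at least 20 reads were recovered in 1 of these 3 libraries, which held for 11552 of the 16970 genes in the table (68.1%). A gene was called different only where P5 lay outside both later values. The cells came from embryonic stem cells, and all 3 passages were grown in a Neurobasal medium that contained CHIR99021 at 3 µM, which blocks GSK3 and so turns on WNT signalling, SB431542 at 5 µM, which blocks activin and TGF-beta receptors, bFGF at 10 ng/ml and hLIF at 1000 U/ml. They were split with trypsin every 3 to 4 days. The submitters rated the growth from single cells with self-assembly into neural tubes as moderate for P5 and as strong for P24 and P36, and they recorded tube formation at high density for all 3. Which embryonic stem cell line was used, and whether the passages belong to 1 derivation, is not stated in the labels. Each passage had 1 library, so passage cannot be told apart from anything else that differed between the 3 cultures or their preparation.

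Neuroepithelial cells form the wall of the neural tube and divide before neurons and glia are made. Their position along the body axis is encoded by transcription factors, among them the HOX genes, whose low paralog groups mark the hindbrain and neck and whose middle groups mark the trunk. Dorsal and ventral identity is set by other factors, such as PAX3 and PAX7 dorsally and NKX6-1 ventrally, and FGF, Notch, WNT and BMP signals hold the cells in the progenitor state or release them to make neurons.

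The libraries held 6808232 (P5), 5620416 (P24) and 7899991 (P36) recovered reads, so the depth of P5 lay between those of the later libraries. Levels are given in FPKM, which corrects fragment counts for transcript length and depth, always in the order P5, P24 and P36, and differences are on the log2(FPKM + 1) scale, which understates changes of low genes. Of the kept genes, 3978 (34.4%) were higher in P5 than in both later libraries, 4358 (37.7%) were lower than in both, and the other 3216 lay between them. These shares are the background against which each gene group below is read. A stricter rule asked for at least a 2-fold difference from the nearer later library. Among the 11484 genes above 0 in all 3 libraries, 276 (2.4%) were at least 2-fold higher in P5 and 197 (1.72%) at least 2-fold lower. By limma, which tested P5 against the mean of P24 and P36, 12 genes (0.104%) were higher and 13 (0.113%) lower in P5 at an adjusted p under 0.05. That test had 1 residual degree of freedom, from the difference between P24 and P36, and took the rest of its spread from a prior fitted over all genes. Of the 12 higher genes, 10 were listed at 0 in a later library and passed the read filter only through P5, so their calls are no independent support for a difference. Of the 13 lower genes, MEOX1, TFAP2B, FST, PAX3 and further genes without a symbol had fewer than 20 reads in P5. They passed the filter only through a later library, so the same limit holds for their calls. The edgeR results given below come from the same kept genes and carry this limit too. Among all kept genes, 418 passed the filter only through P5 and 480 only through a later library. The median difference over all kept genes was 0.02 against P24 and −0.05 against P36. A 0 in the table can be a failed estimate, since YBX1, a cold-shock protein gene active in all cells, had 12583, 0 and 13772 reads, so genes listed at 0 are given no fold change. In bulk RNA, fewer cells of a type and less RNA per cell cannot be told apart.

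Trunk HOX genes were expressed in P5 and nearly all listed at or near 0 later. HOX genes of paralog groups 5 to 9 had 15 rows in the table and 11 passed the read filter. All 11 passed it only through P5, so that P5 was the highest follows from the filter. Neither their count nor their limma or edgeR calls are support for it. Together the 15 rows held 2620 reads in P5, 19 in P24 and 14 in P36. HOXB9 (ENSMMUG00000020869, chromosome 16, 32850925 to 32856103), a trunk factor, stood at 116 FPKM in P5 from 1133 reads and was listed at 0 in both later libraries. A count of 0 allows up to 3 reads in a library.

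HOXB8 was at 58.1, 0 and 0.142 FPKM, with 321, 0 and 1 reads. HOXB7 was at 37.9, 0.168 and 0 FPKM, with 267, 1 and 0 reads. HOXA9 (chromosome 3, 99059930 to 99063012) was at 37.5, 0.114 and 0 FPKM, with 403, 1 and 0 reads. These 3 genes, like HOXB9, were present in P5 and at the edge of detection later, and each of the 4 had an edgeR adjusted p of 0.0179. All 4 passed the read filter only through P5, so these edgeR calls are no independent support. HOXA7 at 23.2 FPKM, HOXB6 at 20.2, HOXC6 at 11.01, HOXA5 at 10.0 and HOXC8 at 9.51 FPKM in P5 were listed at 0 in both later libraries, as was HOXC9 at 7.04 FPKM. None of these 6 passed edgeR, with adjusted p between 0.0544 and 0.118. HOXD8 alone kept several reads later, at 26.9, 8.96 and 4.88 FPKM from 59, 16 and 11 reads (limma log2 difference 1.87 ± 0.42 SE, adjusted p = 0.248). The 4 rows that missed the filter, HOXA6, HOXB5, HOXC5 and HOXD9, had 6, 12, 6 and 2 reads in P5 and at most 2 reads in a later library. HOXB4, HOXB5 and HOXB6 share 1 locus in the table, so the split of reads among them is uncertain.

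The lowest groups of the same clusters did not follow this pattern. Paralog groups 1 to 4 had 8 rows, of which 7 were kept, and held 883, 975 and 925 reads. Of the 7, 2 were higher in P5, 2 were lower, and 0 passed limma. HOXB4 was at 21.1, 43.3 and 21.8 FPKM, and HOXC4 was at 11.8, 16.8 and 14.9 FPKM. HOXD4 was at 52.0, 52.9 and 32.2 FPKM, so P5 lay between the later libraries. The most posterior groups, 10 to 13, had 2 rows, 0 kept, with 2, 1 and 0 reads in all. P5 thus carried transcripts of groups 1 to 9, and the later libraries carried those of groups 1 to 4 with HOXD8 at a lower level.

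**Figure D1:**
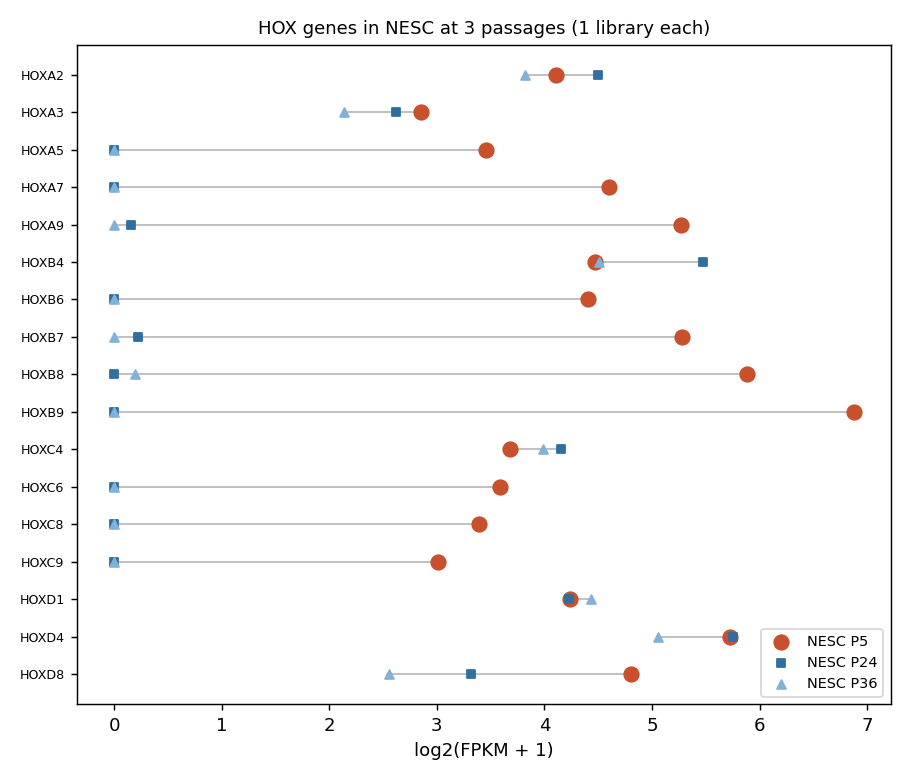
Levels of kept HOX genes on the log2(FPKM + 1) axis in NESC P5 (large circles), P24 (squares) and P36 (triangles), 1 library each, with a grey line over the range. The 11 genes of groups 5 to 9 have P5 to the right of both later points, and 7 of them have both later points at 0, all 11 having passed the read filter only through P5; 2 table rows carry the symbol HOXD1, of which the kept one is drawn.

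Several factors of the midbrain and hindbrain were lower in P5. Of 10 kept genes in a list of forebrain, midbrain and hindbrain position, 8 were lower than in both later libraries, 1 was higher, and 0 passed limma. Of the 10, 3 passed the read filter only through a later library and 1 only through P5. These counts are thus no support for a direction. GBX2, a factor of the anterior hindbrain, was at 15.3, 46.9 and 44.5 FPKM (nearer log2 difference −1.48), and the 2 later values were close to each other. IRX5 was at 33.1, 74.4 and 89.6 FPKM, and EN2, of the midbrain-hindbrain border, was at 1.23, 9.26 and 7.87 FPKM from 3, 22 and 25 reads. EGR2, known in mice for the odd-numbered segments of the hindbrain and also an ERK target, was at 0.223, 11.1 and 12.0 FPKM from 3, 131 and 196 reads (limma adjusted p = 0.0599; edgeR adjusted p = 0.0314). EGR2 passed the read filter only through the later libraries, so its edgeR call is no independent support. MEIS1 and MEIS2, cofactors of HOX proteins, were at 34.6, 61.0 and 62.7 FPKM and at 50.5, 66.5 and 71.5 FPKM. PAX8 went the other way, at 2.19, 0 and 0 FPKM from 26 reads. RARB, a retinoic acid receptor that retinoic acid itself induces, was at 6.41, 31.3 and 48.5 FPKM (nearer log2 difference −2.12), and the retinoic acid carrier CRABP2 was at 413, 809 and 853 FPKM, both lowest in P5. Among all 10 kept genes of the retinoic acid list, 4 were higher in P5 and 4 lower.

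Among factors of the dorsal to ventral axis, the dorsal genes PAX3 and PAX7 were low in P5. Of 17 kept genes in the dorsoventral list, which holds dorsal and ventral factors together, 3 were higher and 10 lower in P5, with 1 passing limma in each direction. Of the 17, 6 passed the read filter only through a later library and 1 only through P5. These counts are thus no support for a direction. PAX3 (ENSMMUG00000020409, chromosome 12, 86071160 to 86171899), a factor of the dorsal neural tube and of neural crest, was at 1.37, 35.6 and 50.4 FPKM from 10, 248 and 478 reads (limma log2 difference −4.19 ± 0.34 SE, adjusted p = 0.0415). PAX3 passed the read filter only through the later libraries, so its limma call is no independent support. Its relative PAX7 was at 1.42, 16.6 and 8.02 FPKM, and P5 lay far below both. GSX2 and GSX1, homeobox factors of interneuron progenitors, were at 0, 8.88 and 4.15 FPKM and at 0.492, 2.69 and 9.74 FPKM. Both had at most 26 reads in a library, so their levels are imprecise. HHIP, which binds and restrains hedgehog ligands, was at 0.172, 1.83 and 9.58 FPKM. The ventral factor NKX6-1 was the upward limma call, at 11.6 FPKM in P5 from 38 reads and listed at 0 later, and it did not pass edgeR (adjusted p = 0.110).

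Several genes of the neural plate border were also lower in P5, while the defining genes of migrating neural crest were near 0 everywhere. TFAP2B (ENSMMUG00000002869, chromosome 4, 50519280 to 50543967), an AP-2 factor of plate border and crest, was at 0.0980, 19.7 and 29.0 FPKM from 1, 169 and 341 reads (limma log2 difference −4.50 ± 0.38 SE, adjusted p = 0.0415). ETS1 was at 0.871, 8.91 and 7.75 FPKM. In the list of neural crest and plate border markers, 7 of 20 genes in the table were kept, 5 were lower in P5 and 0 higher, and 2 (PAX3 and TFAP2B) passed limma. Of the 7, 4 passed the read filter only through a later library, PAX3 and TFAP2B among them. These counts and limma calls are thus no support for a direction. The summed level of the list was 43.6, 145 and 128 FPKM. SOX10, which defines crest, had 0, 1 and 0 reads and FOXD3 had 5, 0 and 1. MEOX1, a homeobox gene best known from somites, was at 0.280, 78.1 and 40.6 FPKM from 1, 251 and 177 reads (limma log2 difference −5.49 ± 0.46 SE). It passed the read filter only through the later libraries, so its limma call is no independent support. The mesoderm genes T and TBX6 had at most 4 reads in any library.

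Targets of FGF and ERK signalling were lower in P5, with bFGF at the same dose in all 3 cultures. ERK, the kinase activated by FGF receptors, induces early response genes and also its own phosphatases. Of 27 kept genes in this list, 22 were lower in P5 than in both later libraries, 2 were higher, 9 were at least 2-fold lower, 0 at least 2-fold higher, and 1 passed limma. Of the 27, 22 passed the read filter both in P5 and in a later library, 4 only through a later library and 1 only through P5. For genes kept through P5 alone or a later library alone, the direction follows from the filter. The median difference over the list was −0.77 against P24 and −1.19 against P36. EGR1 (ENSMMUG00000018025, chromosome 6, 134881997 to 134885796), an early response transcription factor, was at 35.2, 215 and 253 FPKM (limma log2 difference −2.69 ± 0.21 SE, adjusted p = 0.0415). EGR3 was at 0.294, 16.9 and 51.4 FPKM from 1, 54 and 226 reads, and passed the read filter only through the later libraries.

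The ERK phosphatase gene DUSP6 was at 29.6, 119 and 97.1 FPKM, and DUSP5, whose product acts on ERK in the nucleus, was at 3.57, 20.6 and 31.9 FPKM. FOSL1, an AP-1 subunit, was at 2.94, 11.6 and 19.5 FPKM. P5 was the lowest of the 3 for all of these feedback and early response genes, and none of DUSP6, DUSP5 and FOSL1 passed limma (adjusted p = 0.0982, 0.121 and 0.214). The 2 members that were higher in P5 were the ligand gene FGF2 and the receptor gene FGFR1, neither by 2-fold.

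Other signalling genes showed smaller groups of differences. JAG1, a Notch ligand, was at 37.4, 162 and 124 FPKM, and LFNG, which modifies Notch receptors, at 32.0, 91.5 and 66.9 FPKM. They were the 2 of 19 kept Notch genes at least 2-fold lower in P5, where 9 in all were lower and 5 higher. FST, which encodes the activin and BMP binding protein follistatin, was at 0.670, 31.7 and 47.6 FPKM from 4, 167 and 343 reads (limma log2 difference −4.58 ± 0.37 SE, adjusted p = 0.0415). FST passed the read filter only through the later libraries, so its limma call is no independent support. The secreted WNT antagonist SFRP2 was higher in P5, at 627, 102 and 59.7 FPKM (nearer log2 difference 2.61). FRZB, of the same family, was at 5.42, 1.27 and 0.674 FPKM from 57, 11 and 8 reads. FRZB passed the read filter only through P5, so that it was highest there follows from the filter. Genes of the WNT list lay on both sides, and of 16 kept 6 were higher and 5 lower in P5. Of the 16, 14 passed the read filter both in P5 and in a later library and 2 only through P5. LEF1, a WNT target and partner of beta-catenin, was at 13.0, 20.4 and 21.3 FPKM. LIFR, the receptor for the LIF in the medium, was at 6.03, 1.53 and 1.95 FPKM, while the pathway's transcription factor STAT3 was at 38.3, 27.8 and 31.8 FPKM.

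Genes induced by low oxygen were higher in P5. Of 23 kept members, 19 were higher than in both later libraries and 1, WSB1, was lower, 10 were at least 2-fold higher, and 0 passed limma. Of the 23, 19 passed the read filter both in P5 and in a later library and 4 only through P5. The median difference was 1.28 against P24 and 0.92 against P36. BNIP3 (chromosome 9, 131635209 to 131650415), which directs removal of mitochondria, was at 529, 43.8 and 116 FPKM. Its depth-scaled reads were 4.73 times those of P36, with a 95% interval of 4.44 to 5.04 that covers counting error only. P4HA1 and PLOD2, collagen-modifying hydroxylases, were at 114, 24.6 and 29.1 FPKM and at 21.8, 2.91 and 4.40 FPKM. STC2, a secreted glycoprotein, was at 6.43, 0.721 and 0.747 FPKM, and CA12, a carbonic anhydrase, at 4.50, 0.708 and 0.661 FPKM. CA12, with 76, 10 and 13 reads, passed the read filter only through P5. In each of these 5 genes P24 and P36 were closer to one another than either was to P5. P4HA1 passed the edgeR test (adjusted p = 0.0423) and not limma (adjusted p = 0.0838).

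Glycolytic genes were higher in P5 along with them. Of 22 kept members, 18 were higher than in both later libraries, 0 were lower and 7 were at least 2-fold higher, and 20 of the 22 passed the read filter both in P5 and in a later library. SLC2A3 (ENSMMUG00000000439, chromosome 11, 8126570 to 8384507), a high-affinity glucose transporter of neural cells, was at 358, 59.9 and 61.6 FPKM from 7295, 994 and 1441 reads. It was the member that passed limma (log2 difference 2.54 ± 0.19 SE, adjusted p = 0.0415), and its locus is shared with another row of the table. HK2, which traps glucose in the cell, was at 87.5, 22.5 and 22.5 FPKM (limma adjusted p = 0.0858; edgeR adjusted p = 0.0466). SLC16A3, a lactate exporter, was at 33.7, 0.771 and 2.54 FPKM from 186, 4 and 18 reads, a nearer log2 difference of 3.29 that was the largest of the list. SLC16A3 passed the read filter only through P5, as did PFKP, given below, so that both were highest in P5 follows from the filter.

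PFKP, which commits sugar to glycolysis, was at 6.19, 0.1004 and 0.219 FPKM from 64, 1 and 3 reads. ENO2 and PFKFB4, 2 further enzymes of the pathway, were at 35.5, 3.86 and 8.00 FPKM and at 42.9, 4.72 and 12.8 FPKM. The oxidative side of energy metabolism showed no common direction. Of 27 kept respiratory chain and ATP synthase genes, 10 were higher and 8 lower in P5, with medians of 0.03 and 0.01. COX6C alone was at least 2-fold lower, at 278, 688 and 1584 FPKM, but its reads were 42, 70 and 61, so FPKM and reads disagreed by more than 2-fold for it (edgeR adjusted p = 0.644). The summed glycolysis list came to 9190, 6613 and 8013 FPKM, a narrower spread than its low members show.

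**Figure D2:**
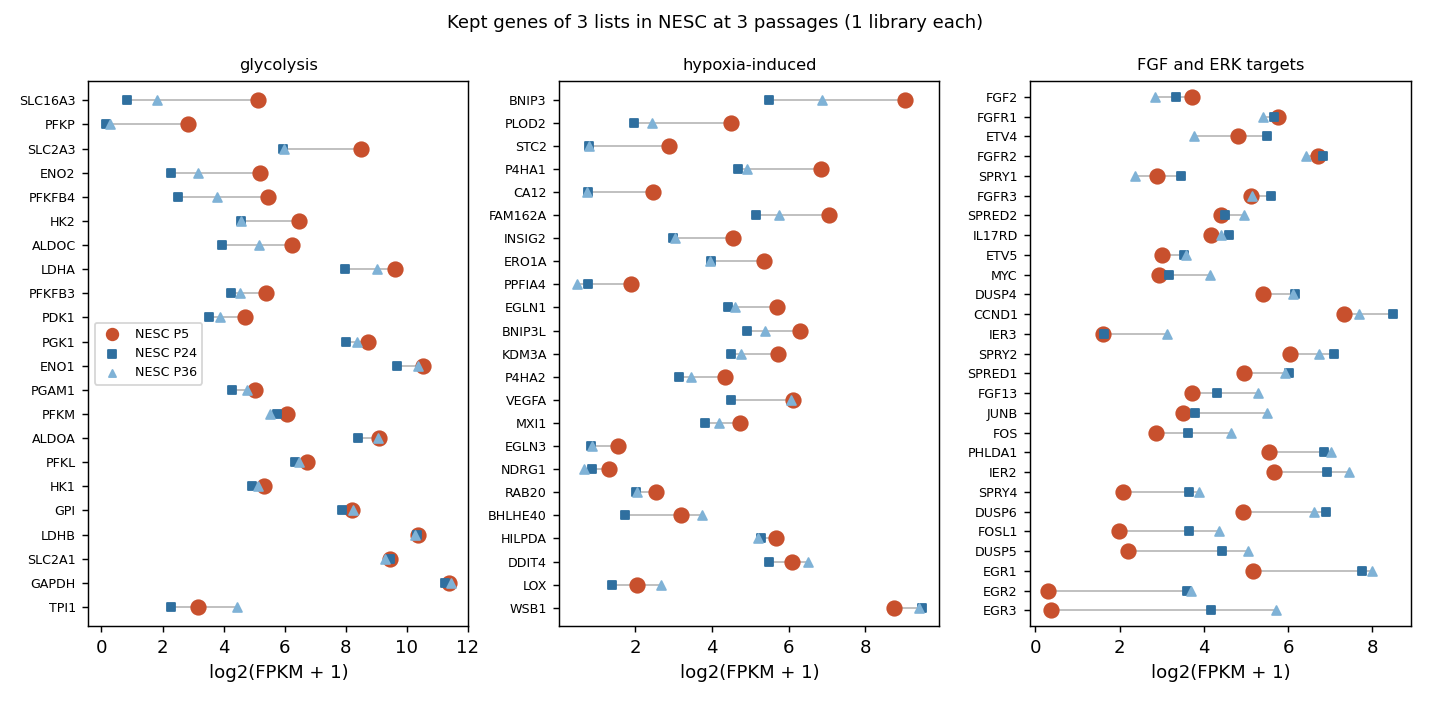
Levels of the kept glycolysis, hypoxia-induced and FGF and ERK target genes on the log2(FPKM + 1) axis in NESC P5 (large circles), P24 (squares) and P36 (triangles), 1 library each, ordered by the limma difference. P5 lies to the right of both later points for 18 of 22 glycolysis and 19 of 23 hypoxia genes and to the left for 22 of 27 FGF and ERK targets. The genes drawn include some that passed the read filter only through P5 or only through a later library.

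Most kept genes of the amino acid and unfolded protein response list were lower in P5, but the list's total was not. The summed level was 1952, 1951 and 3598 FPKM, so P5 and P24 were alike and P36 was highest. Median differences were −0.418 against P24 and −0.875 against P36, while P36 minus P24 gave 1.141. Of 22 kept genes 16 were lower than in both later libraries, 0 were higher and 3 were at least 2-fold lower. SLC7A11, a cystine importer, was at 4.36, 13.4 and 55.6 FPKM. MTHFD2, of mitochondrial folate metabolism, was at 20.6, 43.1 and 99.04 FPKM, and TRIB3, a stress-induced pseudokinase, at 0.577, 2.19 and 17.8 FPKM. P36 was the highest of the 3 in each, and on the log2 scale P36 differed from P24 by more than P24 differed from P5 in all 3. Among CDK inhibitors and p53 targets, 8 of 25 kept genes were higher and 11 lower in P5. BBC3 and PHLDA3, p53 targets, were at 12.1, 37.5 and 33.7 FPKM and at 30.4, 72.5 and 91.2 FPKM from at most 38 reads, and DDB2, a DNA repair gene also induced by p53, was at 6.60, 1.63 and 0.756 FPKM.

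Several neurogenic and early neuronal genes were higher in P5. Of 15 kept proneural and early neuronal factors, 10 were higher, 3 were lower and 0 passed limma, with median differences of 0.83 against P24 and 1.62 against P36. Of the 15, 5 passed the read filter only through P5, so these counts and medians are no support for a direction. NHLH2, a helix-loop-helix factor of cells that have just left the cycle, was at 39.2, 3.11 and 1.39 FPKM from 147, 10 and 6 reads. NEUROD4 was at 18.2, 0.647 and 0 FPKM and NEUROG2 at 9.99, 0 and 0.362 FPKM, from 102 and 20 reads in P5. ELAVL4, a neuronal RNA-binding protein gene, was at 27.0, 1.94 and 0 FPKM. EBF3, of differentiating neurons, was at 9.05, 2.85 and 0.853 FPKM. HES6, SOX4 and BTG2 were the 3 lower members, and none was 2-fold lower.

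Neuronal structure genes split into opposing groups. Of 24 kept members, 15 were higher and 6 lower in P5, and 8 were at least 2-fold higher and 3 at least 2-fold lower. Of the 24, 21 passed the read filter both in P5 and in a later library and 3 only through P5. That those 3 were highest in P5 follows from the filter. STMN2, a microtubule regulator of growing axons, was at 159, 19.9 and 6.10 FPKM (nearer log2 difference 2.94; limma adjusted p = 0.155), and its relative STMN4 was at 27.4, 2.82 and 2.74 FPKM (limma adjusted p = 0.0838; edgeR adjusted p = 0.0466). SYT4 and SNAP25, of vesicle release, were at 3.83, 0.0416 and 0.119 FPKM and at 16.8, 5.05 and 2.64 FPKM. SYT4, with 117, 1 and 4 reads, passed the read filter only through P5. The neurofilament genes NEFL and NEFM and the neuropeptide precursor gene VGF were lower in P5, at 101, 301 and 252 FPKM, at 91.4, 226 and 237 FPKM and at 58.4, 205 and 124 FPKM. The summed level of the list was 1507, 1734 and 1624 FPKM, so it was not highest in P5. RBFOX3, a marker of mature neurons, had 2, 0 and 0 reads and GFAP had 0 reads in all 3. NTRK2, the receptor for BDNF, was at 52.6, 4.82 and 7.77 FPKM (edgeR adjusted p = 0.0462; limma adjusted p = 0.106).

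Single matrix genes stood far above the later passages, but the extracellular matrix and integrin list did not move together. Of its 31 kept genes, 29 passed the read filter both in P5 and in a later library and 2 only through P5. In all, 11 were higher and 12 lower in P5, 3 at least 2-fold higher and 2 at least 2-fold lower. The medians were −0.05 against P24 and 0.10 against P36. The 2 lower members were FBN2, a fibrillin, at 12.6, 27.2 and 40.7 FPKM and ITGB8, an integrin subunit, at 11.2, 37.5 and 29.3 FPKM. THBS1, a matrix gene outside the list, was lower too, at 6.30, 168 and 134 FPKM. The higher genes named next do not all belong to this list, which had 3 members at least 2-fold higher. LUM and COL3A1 count among the fibroblast, muscle, endothelial and blood markers given below. LUM, a collagen-binding proteoglycan, was at 20.3, 0.943 and 0.298 FPKM from 245, 9 and 4 reads (limma adjusted p = 0.0742; edgeR adjusted p = 0.0466). COL3A1, a fibrillar collagen, was at 33.7, 4.06 and 0.0844 FPKM. The chains of collagen VI, COL6A1, COL6A2 and COL6A3, were at 50.9, 10.4 and 5.80 FPKM, at 22.3, 2.61 and 0.580 FPKM and at 22.0, 1.29 and 0.135 FPKM. P24 lay between P5 and P36 for all 4 of these collagen genes. ITGA8, an integrin subunit, was at 10.9, 0.451 and 0.427 FPKM from 260, 9 and 12 reads (limma adjusted p = 0.0662; edgeR adjusted p = 0.0195). LUM and ITGA8 passed the read filter only through P5, so their edgeR calls are no independent support.

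Markers of fibroblasts, muscle, endothelium and blood had 17 genes in the table and 7 kept, of which 3 passed the read filter only through P5. Of the 7, 5 were higher in P5, LUM and COL3A1 among them, and 1, the smooth-muscle gene TAGLN, was lower at 21.1, 76.6 and 101 FPKM. Since 3 were kept through P5 alone, these counts are no support for a direction. DES, of muscle, was at 5.98, 1.22 and 0.240 FPKM and DCN, of fibroblasts, at 2.12, 0.311 and 0 FPKM. COL1A1, the defining fibroblast collagen, did not follow, at 3.11, 5.79 and 0.407 FPKM, and the endothelial gene PECAM1 had 1, 0 and 0 reads. The summed level of the list was 92.4, 94.7 and 106 FPKM, with TAGLN the largest member in the later libraries. Whether a few cells of another type in the P5 culture had a part in the collagen and neuronal values was not tested.

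**Figure D3:**
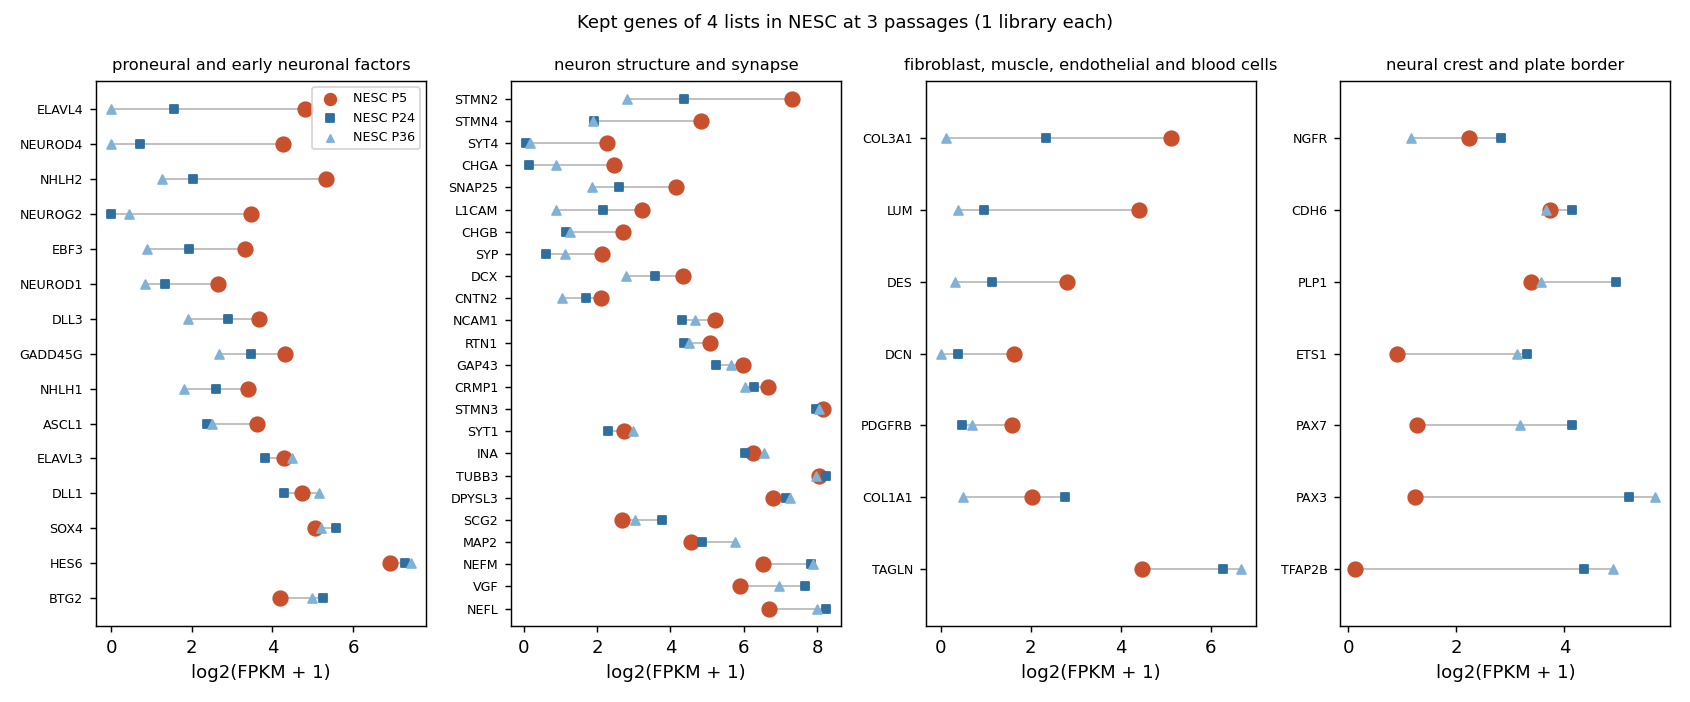
Levels of kept proneural, neuronal structure, mesenchymal and blood, and neural crest and plate border genes on the log2(FPKM + 1) axis in NESC P5 (large circles), P24 (squares) and P36 (triangles), 1 library each, ordered by the limma difference. P5 is to the right for STMN2, NHLH2, COL3A1 and LUM and to the left for NEFL, TAGLN, PAX3 and TFAP2B.

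Genes of neural progenitors were expressed in all 3 passages. Of 18 kept neuroepithelial and neural stem cell genes, 5 were higher and 9 lower in P5, and 0 were 2-fold outside in either direction. SOX2 was at 153, 201 and 202 FPKM and NES, the progenitor filament nestin, at 348, 467 and 470 FPKM. CDH2, the cadherin that joins neuroepithelial cells, was at 210, 231 and 249 FPKM, while PAX6 was at 98.8, 82.2 and 42.4 FPKM. LIN28A and ZBTB16, genes of early neural progenitors, were at 178, 327 and 309 FPKM and at 14.2, 37.8 and 24.1 FPKM, both lowest in P5. POU5F1, which defines pluripotent cells, had 2, 1 and 2 reads.

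Of 36 cell cycle genes, 5 were higher, 15 lower, 16 between and 0 2-fold outside, with medians of 0.11 against P24 and −0.28 against P36. MKI67, a mark of dividing cells, was at 70.1, 45.2 and 84.6 FPKM, and TOP2A, of mitosis, was at 253, 154 and 228 FPKM, so P24 rather than P5 was lowest in both. CCND2, which drives entry into the cycle, was at 18.4, 31.7 and 31.6 FPKM. Ribosomal protein genes lay between the later values for 21 of 31. Of 32 kept cadherin and junction genes, 16 were lower in P5, 6 higher and 5 at least 2-fold lower. CDH13 was at 2.25, 14.5 and 14.7 FPKM (edgeR adjusted p = 0.0466; limma adjusted p = 0.118) and PCDH8, a protocadherin, at 13.3, 46.4 and 47.6 FPKM.

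Among single genes above 0 in all 3 libraries with at least 50 reads in 1, PZP (ENSMMUG00000003238, chromosome 11, 9210776 to 9257099), a protease inhibitor of the alpha-2-macroglobulin family, stood farthest above the later passages. It was at 33.3, 0.836 and 0.338 FPKM from 993, 21 and 12 reads (limma log2 difference 4.45 ± 0.37 SE, adjusted p = 0.0415). STC1, a secreted glycoprotein related to STC2, was at 28.4, 0.704 and 2.89 FPKM, and the imprinted gene NNAT at 79.4, 11.4 and 2.08 FPKM. GDAP1L1 and VXN were at 34.3, 3.67 and 2.32 FPKM and at 22.1, 2.62 and 0.863 FPKM. With LUM, COL6A3, SLC16A3, NHLH2, ITGA8, STMN2, STMN4, COL3A1, COL6A2 and NTRK2 these make the 15 named genes with the largest nearer differences upward, from 2.61 to 4.22. Of the 15, GDAP1L1, LUM, SLC16A3, NHLH2 and ITGA8 passed the read filter only through P5.

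Downward, MEOX1, FST and TFAP2B were followed by THBS1 (ENSMMUG00000006035, chromosome 7, 17872132 to 17887415), a matricellular protein gene, at 6.30, 168 and 134 FPKM from 136, 3214 and 3536 reads (limma log2 difference −4.37 ± 0.24 SE, adjusted p = 0.0316). ANXA1, an annexin, was at 3.47, 59.2 and 71.9 FPKM (limma log2 difference −3.89 ± 0.26 SE, adjusted p = 0.0343). EFNB2, an ephrin ligand, was at 14.9, 94.1 and 117 FPKM, BOC, a hedgehog co-receptor, at 27.0, 166 and 142 FPKM, and TNFRSF12A, a TNF receptor family member, at 25.7, 164 and 143 FPKM, each with a limma adjusted p of 0.0415. All 5 had much more RNA in both later passages, and the later values were close together. Such closeness is favoured by the limma call, whose spread rests in part on P24 against P36. KLF5 at 2.13, 18.3 and 37.2 FPKM, SMOC1 at 16.6, 227 and 94.8 FPKM and C3ORF32 at 2.93, 31.8 and 24.4 FPKM did not pass. SCP2 passed limma at 87.0, 482 and 596 FPKM (adjusted p = 0.0461), but its reads were 1203, 955 and 996, so FPKM and reads do not give 1 answer for it (edgeR adjusted p = 0.757).

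**Figure D4:**
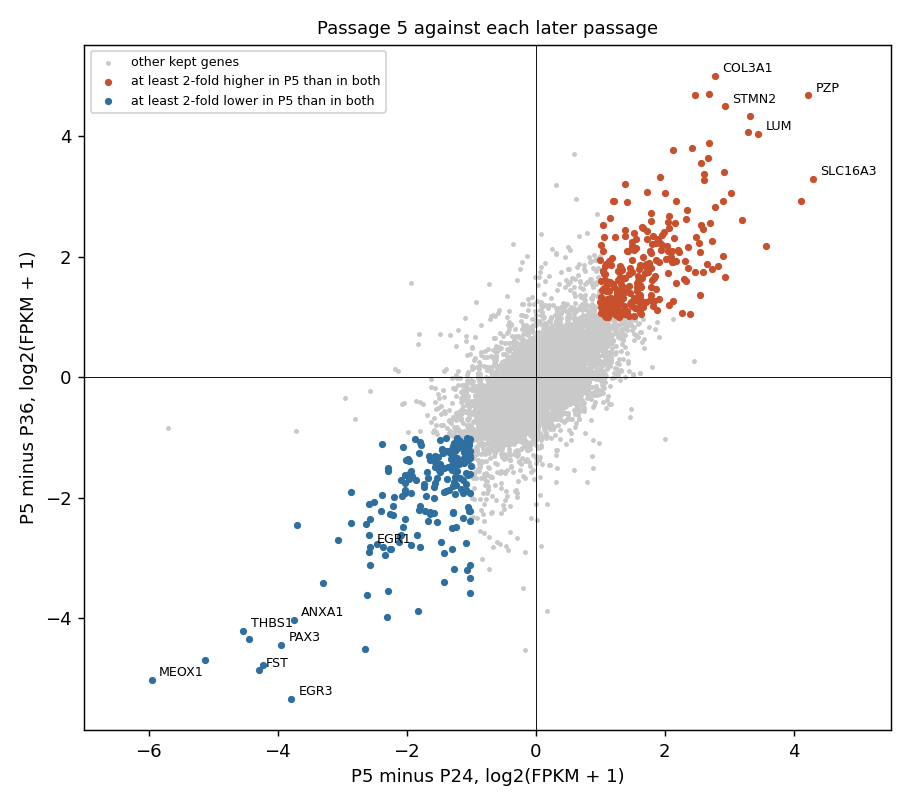
Difference of P5 from P24 (horizontal) and from P36 (vertical) in log2(FPKM + 1) for the 11484 kept genes above 0 in all 3 libraries, 1 point a gene. The 276 genes at least 2-fold higher in P5 than in both are red and the 197 at least 2-fold lower are blue; both axes share the P5 value, so the slope of the cloud is no measure of likeness.

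Of the 473 genes at least 2-fold outside, 459 had a read ratio to the nearer library whose 95% counting interval left out 1, and P24 and P36 were within 2-fold of each other for 420. There were 115 with fewer than 50 reads in every library and 23 whose FPKM and reads disagreed by more than 2-fold. P24 lay between P5 and P36 in 162 of the 276 higher genes and in 127 of the 197 lower ones. The genes were selected for a 2-fold difference, so intervals that leave out 1 follow largely from that rule. Shares over all kept genes are not given beside these counts, which only describe the selected genes. Just inside the threshold were STARD5 and IRF2, both with a nearer log2 difference of 1.00, and just outside were FAM107A at 0.9987 and F3 at −0.9985. A further 59 kept genes listed at 0 in some library were higher in P5 and 7 were lower, but 56 of the 59 passed the read filter only through P5 and all 7 only through a later library. The other 3 of the 59 were YBX1, ASCC3 and SLC38A1, whose P5 level was close to that of the other later library, with nearer log2 differences of 0.14, 0.03 and 0.12. Besides HOX genes, NKX6-1 and PAX8, the 56 included OTP, a homeobox factor of hypothalamic neurons, at 8.02, 0 and 0 FPKM from 77 reads.

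The limma calls rest on 1 residual degree of freedom, and each of the 25 called genes was called under only 2 to 6 of its 10 or 11 other settings. Of these 25, 17 were also called by edgeR on the recovered reads. The edgeR test used the same read filter, so it adds no independent support for genes kept through P5 alone or a later library alone. HOXA5, HOXA7, HOXB6, HOXC6, HOXC8, NKX6-1, MEOX1 and SCP2 were the 8 that edgeR did not call.

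Genes of chromosome 3, as the table gives it, were shifted upward in P5 by a small amount along most of its length. The median difference over its 582 kept genes was 0.218 against P24 and 0.149 against P36, whereas over the 10970 kept genes elsewhere it was 0.014 and −0.062. Of the 582 genes, 54.0% were higher in P5 than in both later libraries, beside 34.4% of all kept genes, and 23.4% were lower. In neighbouring blocks of 25 genes, both medians of a block exceeded those of all kept genes in 21 of 23 blocks of chromosome 3 and in 138 of 418 blocks elsewhere (33.0%). The difference between P36 and P24 on chromosome 3, 0.068, was near that of all genes, 0.08. The next largest share of such blocks was 62.5%, on chromosome 5.

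The HOXA cluster lies on chromosome 3 and its block, from 96690315 to 103073346, had the largest medians, 0.591 and 0.760. Next to the cluster, SKAP2, a signalling adaptor gene, was at 14.3, 1.53 and 1.78 FPKM and SNX10, of endosomal sorting, at 12.3, 2.32 and 0.599 FPKM. Without that block the chromosome's medians were 0.208 and 0.140, and without genes at least 2-fold outside they were 0.206 and 0.143. With at least 100 reads in all 3 libraries, 379 genes gave 0.183 and 0.143, beside −0.003 and −0.065 for all chromosomes. Each of these medians was close to that over all 582 genes. Chromosomes 19 and 20 had the lowest medians, at −0.111 and −0.214 for chromosome 19 and at −0.040 and −0.156 for chromosome 20, and there P36 exceeded P24 by more than elsewhere, 0.119 in each. No test was run on chromosome medians, since genes of 1 chromosome in 1 library are not replicates.

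**Figure D5:**
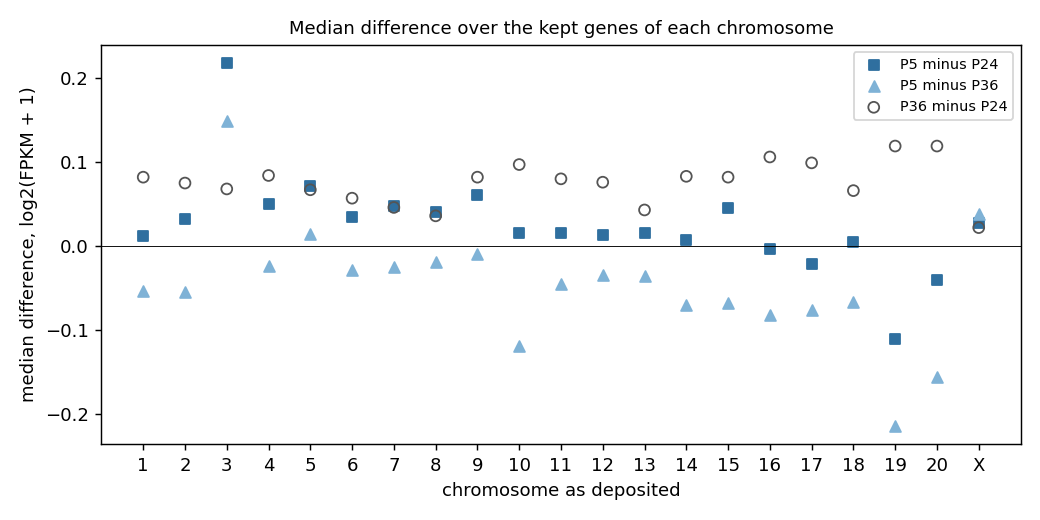
Median difference in log2(FPKM + 1) over the kept genes of each chromosome for P5 minus P24 (squares), P5 minus P36 (triangles) and P36 minus P24 (open circles). On chromosome 3 both P5 differences are above those of every other chromosome, at 0.218 and 0.149, while the open circle is at 0.068.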

How the data were processed

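Messenger RNA libraries (500 ng mRNA, random primers, TruSeq, Illumina HiSeq, per the labels' protocols) went through TopHat2 2.0.9, per the submitters' processing notes. The genome build, annotation, counting program and strand setting were not given in the sources used here, and gene positions are as deposited. The deposited table gives FPKM per library, per the file headers, and a normalized count, a signal that is whole reads times 1 factor per library. Division by this factor left integers to within 0.1 read in P5 and P24 throughout and in P36 with 1 exception. The deposited table named 10958 genes, and RefSeq tables of another assembly added names for 2198 through the peptide and 1310 through the gene ID. A locus was shared by 1582 kept genes with another gene. The table held 0 columns that could not be assigned to a sample.

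The log2(FPKM + 1) values computed from the deposited FPKM were tested with limma 3.58.1 (trend, two-sided, R 4.3.3), P5 minus the mean of P24 and P36, with Benjamini-Hochberg adjustment over 11552 genes, 1 residual degree of freedom and 3.96 prior degrees of freedom. P24 and P36 are different passages, not replicates, and the lone P5 library is assumed to vary like them. The spread may be technical. The ± values are limma standard errors. Read ratios carry 95% exact binomial (Clopper-Pearson) intervals for counting error only. Alternatives used edgeR 4.0.16 and DESeq2 1.42.0 on recovered reads, other pseudocounts, read filters, scalings and variance models, and left out each later library. The scripts were tested on simulated data. A few genes that enter the counts are not reported here by name.

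The 36 gene lists hold 925 genes, of which 770 are in the table. The members and lists were chosen with earlier results of these data known, so list counts are descriptions and no set was tested. Named genes are the 15 largest nearer differences in each direction (symbol, above 0 in all 3, at least 50 reads and 5 FPKM in 1), up to 6 members of each list in each direction, and fixed markers. HOX genes beyond that rule, PAX8, OTP, ASCC3, SLC38A1, NEUROG2, YBX1, SKAP2, SNX10, STAT3, HOXD4, T, TBX6 and the genes at the threshold were chosen after their values were seen.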

Additional observations from a re-analysis of the deposited data

How the results depend on the processing

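Higher and lower genes by limma numbered 0 and 0 with a pseudocount of 0.1 (1119 genes at an unadjusted p under 0.05), with at least 1 read (1702), with median-of-ratios scaling (1193), with TMM log2 CPM (1265) and without a trend (1224), against 12 and 13 with 1190 at an unadjusted p under 0.05 as reported. They numbered 27 and 11 with a pseudocount of 5, 18 and 17 with at least 50 reads, 7 and 7 after quantile normalization, 8 and 12 in robust form, 14 and 13 by edgeR and 85 and 84 by DESeq2. Genes at least 2-fold higher fell from 276 to 88, and lower from 197 to 103, with a pseudocount of 5; all 191 were among the 473. Against 1 later library alone, 475 to 511 genes were at least 2-fold higher and 353 to 499 lower, without a test, since no residual degree of freedom remains, and the genes above P36 alone numbered 5141 and above P24 alone 6030. SCP2 reversed, to 0.28, with TMM log2 CPM, and of 116 named genes with a nearer log2 difference of at least 1, 37 fell under 1 with a pseudocount of 5, 7 after quantile normalization and 3 with TMM. The median of chromosome 3, 0.184 against the later mean, stayed between 0.145 and 0.218 under all its settings, including the 3 chosen after seeing the data (without the HOXA block, without genes 2-fold outside, at least 100 reads). No paired analysis was possible because the libraries carry no shared replicate numbers. For genes with 0 reads in a library the depth allows no fold change.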
